A study of Brassica napus with 8 samples.

Results

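Rapeseed (Brassica napus), an oil crop that carries an A and a C subgenome, was compared across 4 tissues of the cultivar Zhongshuang 11. A set of 250 genes is described here that had transcripts in young leaf and in germinating seed and almost none in seed before germination. Members were chosen from the TMM-scaled values that the authors deposited, which are counts relative to a fixed library total (CPM) adjusted by a factor per library. A member had at least 2 in both libraries of young leaf and of germinating seed, and below 1 in each of the 4 libraries of 50 DPA seed and dry seed. Of the 106059 gene IDs in the count table, 1676 met these limits. The 250 with the highest value of the lower of their mean in leaf and their mean in germinating seed were taken. The presence in 2 tissues and the near absence from the other 2 were therefore set by the choice of genes, and those values are given as a description.

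Transcripts with a poly(A) tail were sequenced from seed labelled 50 DPA, dry seed, seed labelled 48 h germinating, and young leaf, with 2 libraries each. All came from Zhongshuang 11, with no other treatment or allele in the labels. Per the labels' protocols, economically important organs came from plants managed on a farm and vegetative tissues from plants grown in a greenhouse. The labels do not give the place of each sample, and where leaf and seed were grown apart, tissue and growing place cannot be told apart. No preparation or sequencing batch is in the labels either. Germinating seed is named in a different style from the other tissues and is missing from a second set of counts that holds them. If it was prepared or sequenced apart, batch and tissue cannot be told apart in any comparison with it. Whether the libraries of a tissue stem from different plants or harvests is not in the labels. The p-values below therefore reflect the spread between these libraries alone, and that spread may be technical. In such bulk samples, fewer cells of a type and less RNA per cell cannot be told apart.

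As background, an oilseed embryo late in development fills its cells with storage protein and oil, loses its chlorophyll and prepares for drying. Dry seed is quiescent and carries a stored pool of transcripts. After water uptake, transcription resumes, the embryo axis elongates, the seed reserves begin to be broken down, and the seedling turns towards photosynthesis, the main activity of a young leaf. Growing leaf and emerging seedling both use genes of plastid build-up, cell wall growth, cell division and transport. The deposited files do not pair gene IDs with product names, and 0 of the 106059 IDs were found in the available gene table, made for a different assembly (Da-Ae). The members are therefore given by ID, no function is assigned to them, and the labelled tissues could not be checked against marker genes.

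The limits used here selected more genes for leaf with germinating seed than for any other pair of tissues. The same limits gave 667 genes for 50 DPA with dry seed, 405 for 50 DPA seed with leaf and 165 for 50 DPA with germinating seed. They gave 93 for dry with germinating seed and 75 for dry seed with leaf. More genes had a count above 0 in leaf (61054 and 61275 by library) and germinating seed (63365 and 61788). The numbers were 54267 and 54781 in 50 DPA seed and 48168 and 47940 in dry seed. How far this shapes the order of the pairs was not tested. With total counts alone, DESeq2 size factors or upper-quartile factors, alternatives added after the data were seen, leaf with germinating seed was again the largest of the 6 pairs. On the scale of total counts alone, the limits gave 2656 genes for leaf with germinating seed, and with the upper limit in seed at 0.5 they gave 1023. The last gene inside the list of 250, ZS11A02G035100, had a mean of 9.63 ± 0.760 in germinating seed and 22.3 ± 0.114 in leaf (SD, n = 2). The first gene outside it, ZS11A06G034440, had 9.63 ± 0.497 in germinating seed and 12.9 ± 0.413 in leaf. The lower limit of 2 thus played no part in where the list ended, which was set by its length.

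Library totals ran from 27635445 to 55721357 counts. Between 80.5% and 85.4% of the counts above 0 in a library were even numbers, a pattern that counting each mate of a pair separately would give. If so, a fragment adds about 2 counts and the counts understate counting error. For this reason 3 read pairs, or 6 counts, were taken as the floor that a count of 0 allows, which covers counting error only. That floor stood at 0.254 and 0.236 in the 50 DPA libraries, 0.190 and 0.249 in dry seed, 0.0820 and 0.108 in germinating seed, and 0.141 and 0.135 in leaf, in TMM-scaled CPM. The limit of 1 in seed therefore lay well above what these libraries could detect.

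The members made up a small share of all transcripts. They took 0.00421% ± 0.0000596 of the counts in 50 DPA seed, 0.00236% ± 0.000311 in dry seed, 1.30% ± 0.0509 in germinating seed and 2.82% ± 0.000508 in young leaf (SD, n = 2). The median member stood at 0.169 and 0.158 in the 50 DPA libraries, at 0 in both dry seed libraries, at 21.9 and 21.3 in germinating seed, and at 24.0 and 24.6 in leaf. The members' medians in germinating seed and in leaf lay close together, whereas their summed levels were 9730 ± 136 in germinating seed and 23181 ± 14.9 in leaf. The larger sum in leaf rested on a few members. The 10 most abundant members of leaf took 61.5% ± 0.294 of the members' summed level there, and ZS11A04G010630 alone took 20.8% ± 0.408. The 10 most abundant members of germinating seed took 22.9% ± 1.62 of the sum there, and its most abundant member, ZS11C05G010390, took 3.30% ± 0.266. A mean of at least 100 was reached by 19 members in germinating seed and by 28 in leaf, and a mean of at least 20 by 139 and 146 members of the same tissues.

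**Figure D1:**
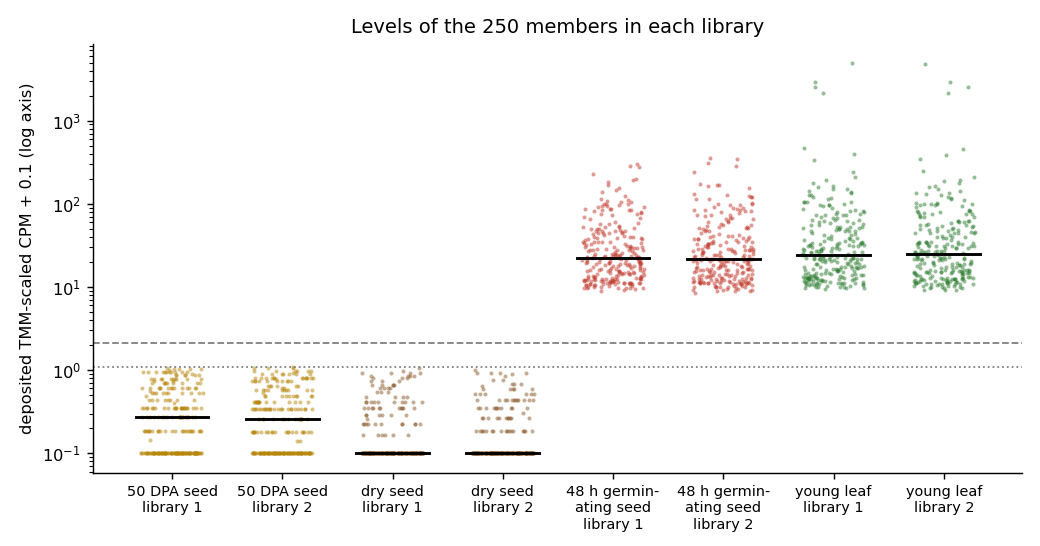
Levels of the 250 members in each of the 8 libraries, as deposited TMM-scaled CPM plus 0.1 on a log axis. Each point is a member, black lines are medians, and the dotted and dashed lines mark the limits of 1 and 2 that chose the members. Leaf has a few members above 2000, while the highest value in germinating seed is 359.3.

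Among the 5 highest members by the rule, 2 did not differ detectably between germinating seed and leaf. ZS11C02G056780, first by the rule, had 2 counts in the first 50 DPA library and none in the other or in dry seed. It stood at 230.4 and 284.1 TMM-scaled CPM in germinating seed and at 243.4 and 249.1 in leaf, so the libraries of the 2 tissues overlapped. ZS11C08G026490 likewise had 2 counts in the first 50 DPA library and none in the other or in dry seed. It stood at 147.3 and 164.9 CPM in germinating seed and 149.5 and 159.1 in leaf, again with overlap. The log2 change of germinating seed over leaf was 0.06 (SE 0.12) for ZS11C02G056780 and 0.01 (SE 0.11) for ZS11C08G026490, and neither passed the test described below (edgeR quasi-likelihood adjusted p = 0.686 and 0.967).

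The other 3 were lower in germinating seed than in leaf. ZS11A02G037140 had no count in any seed library and stood at 195.3 and 242.6 CPM in germinating seed and 394.2 and 382.8 in leaf. Its level was at least 894-fold higher in germinating seed and at least 1586-fold higher in leaf than in 50 DPA seed taken at its floor. Against the floor in dry seed, it was at least 999-fold higher in germinating seed and at least 1773-fold higher in leaf. ZS11C06G044000, also without a count in seed, stood at 124.3 and 119.8 CPM in germinating seed and 161.8 and 176.2 in leaf. ZS11A06G037130 had 4 and 6 counts in the 50 DPA libraries and none in dry seed. Its level was 105.7 and 127.2 CPM in the germinating seed libraries and 160.5 and 164.7 in leaf. For all 3, both germinating libraries lay below both leaf libraries, with log2 changes of -0.83, -0.47 and -0.49 (edgeR adjusted p = 0.000105, 0.00116 and 0.00189).

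**Figure D2:**
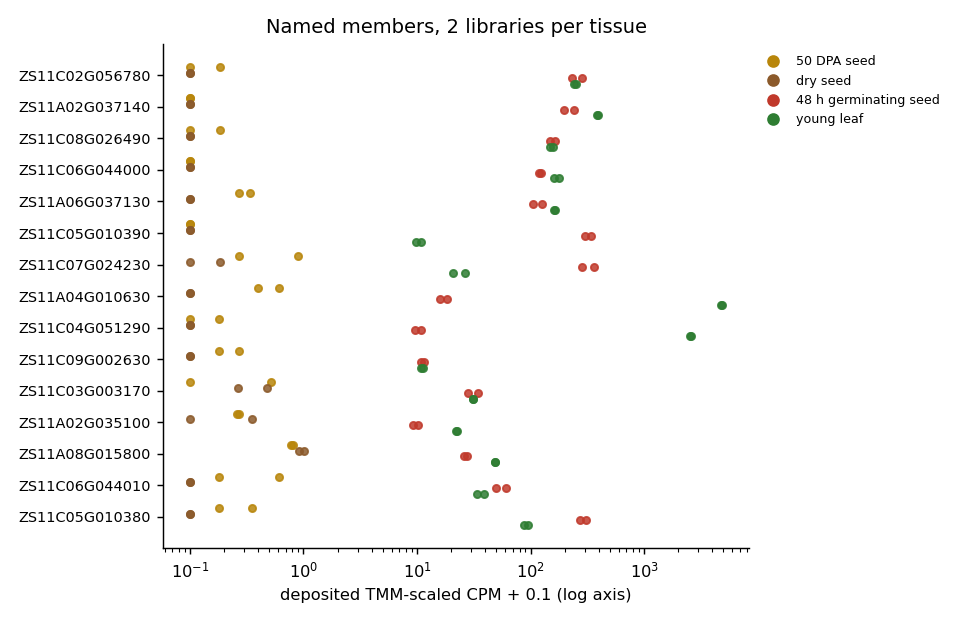
Values of the named members in the 2 libraries of each tissue, as deposited TMM-scaled CPM plus 0.1 on a log axis. Most of these members sit at or near 0 in seed before germination, and they differ in whether germinating seed or leaf is higher, from ZS11C05G010390 at 321.5 in germinating seed and 10.3 in leaf to ZS11A04G010630 at 17.0 and 4810 in the same tissues.

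Members without counts were more frequent in dry seed than in 50 DPA seed, and so were genes without counts over the whole table. No count was found in both dry seed libraries for 150 members (60.0%) and in both 50 DPA libraries for 77 (30.8%), and 62 (24.8%) had none in any of the 4. Over all genes tested, the same shares were 18.5% in dry seed, 11.2% in 50 DPA seed and 8.18% in all 4 libraries. Among the other 1426 genes meeting the limits, they were 46.1% in dry seed, 25.2% in 50 DPA seed and 18.5% in all 4. The members' counts summed to 913 and 591 in the dry seed libraries, against 1441 and 1524 in the 50 DPA libraries. On the TMM scale their summed level was 26.7 ± 3.11 in dry seed and 60.5 ± 0.658 in 50 DPA seed (SD, n = 2). The smallest p of an exact permutation test of 2 against 2 libraries is 0.333. Both dry seed libraries lay below both 50 DPA libraries for 89 members (35.6%) and above them for 12 (4.8%). Of all genes tested, 39.9% lay below in this way and 31.3% above, and of the other genes meeting the limits 33.4% lay below and 9.05% above. The share of members lying below was thus near that of both backgrounds, while their share lying above was lower than in both. These shares were not tested. A member without a count in either stage cannot be counted in either direction. TMM factors were higher in dry seed (0.893 and 0.874) than in 50 DPA seed (0.698 and 0.695), and they raise the 50 DPA levels relative to total counts. On total counts alone the members' share was 0.00236% in dry seed against 0.00421% in 50 DPA seed. As the rule capped both stages at 1, these values describe what lay under that cap.

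More than 6 counts in both libraries were found for 25 members in dry seed, for 56 in 50 DPA seed and for 12 in both stages. ZS11A08G015800 had the highest summed level over the 2 stages, at 0.677 and 0.709 CPM in 50 DPA seed and 0.822 and 0.911 in dry seed, from 16 to 26 counts a library. Its levels were 27.2 and 26.0 CPM in germinating seed and 48.5 and 48.7 in leaf. Its transcripts were thus detected in all 8 libraries, and it is a member because its seed values lay just below the limit. At most 6 counts in each of the 4 seed libraries were seen for 120 members, 48.0% of the set.

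The choice of genes did not fix the direction of the difference between germinating seed and leaf. The rule used the lower of the 2 means and not their ratio. It did limit large differences, since the lower mean had to reach that of the last member, 9.63 CPM. The comparison of germinating seed with leaf was fitted on the counts of all 59062 genes tested. It used edgeR's quasi-likelihood test and Benjamini-Hochberg adjustment over all of them. All 250 members passed the filter on low counts. At an adjusted p under 0.05, 77 members (30.8%) were higher and 102 (40.8%) lower in germinating seed than in leaf, and 71 were not called. Over all genes tested, 65.7% were called, 32.6% higher and 33.1% lower. The members' median log2 change was -0.12, against 0.00 over all genes tested. The median moved with the scale. It was 0.02 on total counts, where all genes had a median of 0.11, and -0.23 with DESeq2 size factors. Taken relative to the median of all genes, it was between -0.13 and -0.08 under every alternative tried. Of the genes tested, 593 had no count in either tissue, so the median of 0.00 over all genes may rest on ties at 0. In the fit of germinating seed and leaf libraries alone, the median was -0.069 for members and 0.013 for all genes.

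A closer background is given by the 10905 other tested genes whose lower mean was at least that of the last member. All 10905 reached 1 CPM in at least 1 seed library. This follows from how the sets were chosen, since genes of that level that stayed below 1 in seed were taken as members. Among them 73.8% were called: 48.4% were higher and 25.3% lower in germinating seed than in leaf, with a median log2 change of 0.29. The other 1426 genes that met the limits of the rule, but at lower levels, had 56.7% called, 18.2% higher and 38.5% lower, with a median of -0.34. The members' share called higher and their median thus lay between those of the 2 sets, while their share called lower was above both. The difference between sets was not tested. More members were lower than higher under each of the 20 alternatives tried, which refit the same libraries. The margin was narrow on some scales, at 91 higher and 96 lower with total counts alone. With upper-quartile factors it was 90 higher and 95 lower.

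**Figure D3:**
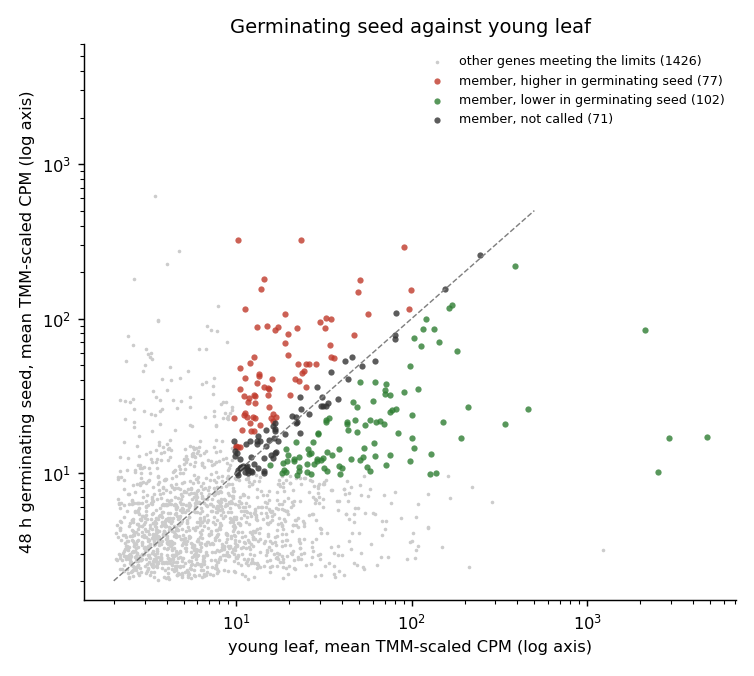
Mean level in 48 h germinating seed against mean level in young leaf, TMM-scaled CPM on log axes, with equal levels on the dashed line. Members are coloured by the edgeR call (77 higher, 102 lower, 71 not called) and the other 1426 genes meeting the limits are grey. The right-angled edge of the members is the rule itself, and the far right holds members with leaf levels above 2000.

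The majority of members differed by less than 2-fold between germinating seed and leaf, while the libraries of the 2 tissues rarely overlapped. The log2 change lay within 1 in either direction for 138 members (55.2%), against 63.6% of the genes of at least that level and 43.8% of all genes tested. Libraries of germinating seed and leaf did not overlap for 227 members (90.8%), against 87.0% of all genes tested and 90.9% of the genes of at least that level, so the members' share is near the background. Of the 227, 48 were not called by the test. Changes of at least 2-fold were called for 45 members higher (18.0%) and 67 lower (26.8%), against 23.9% higher and 26.8% lower among all genes tested and 24.8% higher and 11.6% lower among the genes of at least that level. Changes of at least 4-fold were called for 14 members higher (5.60%) and 24 lower (9.60%), against 13.0% and 17.3% of all genes tested and 5.02% and 3.43% of the genes of at least that level. Changes of at least 16-fold were called for 1 member higher (0.400%) and 6 lower (2.40%), against 6.04% and 8.03% of all genes tested and 0.183% and 0.321% of the genes of at least that level. These shares were not tested against each other. All genes tested had no such limit on the lower mean, so the members' fewer large changes beside them were partly set by the rule. The genes of at least that level share the limit. The members called higher had a median mean of 42.6 CPM in germinating seed and 15.4 in leaf. The members called lower had a median of 16.3 in germinating seed and 53.4 in leaf. Those not called had 16.1 in germinating seed and 16.2 in leaf.

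**Figure D4:**
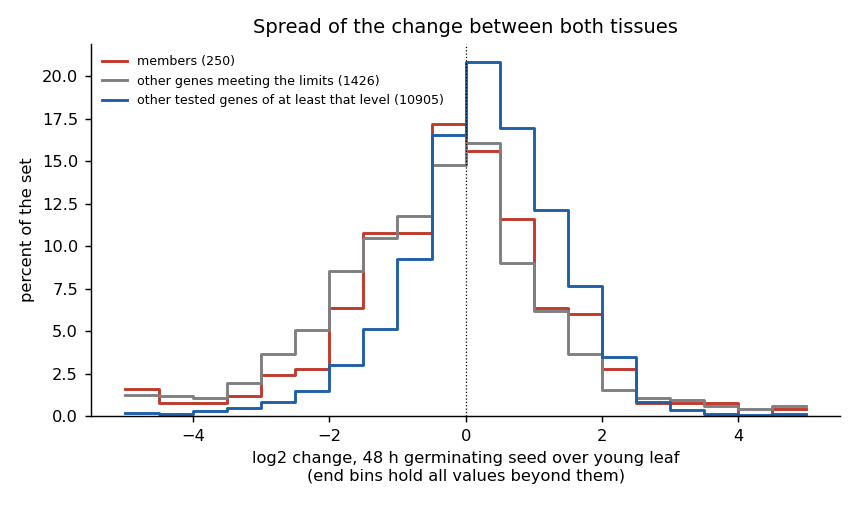
Distribution of the log2 change of 48 h germinating seed over young leaf in 3 sets of genes, as the percent of each set per step of 0.5, with the end steps holding all values beyond -5 and 5 as well. Members (red) are centred near 0 with a median of -0.12, the other genes meeting the limits (grey) at -0.34 and the other genes of at least the members' level (blue) at 0.29.

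The largest differences towards germinating seed were found in ZS11C05G010390 and ZS11C07G024230. ZS11C05G010390 had no count in any of the 4 seed libraries. It stood at 300.0 and 342.9 CPM in germinating seed and at 10.8 and 9.70 in leaf, 31.4-fold higher in germinating seed with a log2 change of 4.97 (SE 0.12; edgeR adjusted p = 4.77e-10). ZS11C07G024230 had 4 and 20 counts in the 50 DPA libraries and 0 and 2 in dry seed. It stood at 282.4 and 359.3 CPM in germinating seed and at 20.5 and 26.5 in leaf, a log2 change of 3.77 (SE 0.20; edgeR adjusted p = 1.1e-08). In leaf these 2 genes were thus near or below the median member, while in germinating seed they were the 2 most abundant members.

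The largest differences towards leaf were larger still. ZS11A04G010630 had 7 and 13 counts in 50 DPA seed and none in dry seed, stood at 18.1 and 15.95 CPM in germinating seed and reached 4875 and 4746 in leaf. Its level was 282-fold higher in leaf than in germinating seed, a log2 change of -8.14 for germinating seed over leaf (SE 0.12; edgeR adjusted p = 4.08e-12). ZS11C04G051290 had 2 counts in the second 50 DPA library and none in the other or in dry seed. It stood at 10.7 and 9.46 CPM in germinating seed and at 2521 and 2573 in leaf, a log2 change of -7.98 (SE 0.13; edgeR adjusted p = 6.54e-12). ZS11A04G014400, the second most abundant member in leaf and chosen after its values were seen, had no count in seed, 17.9 and 15.7 CPM in germinating seed and 2931 and 2930 in leaf. These 3 members were the most abundant of the set in leaf and had means between 10.1 and 17.0 CPM in germinating seed, with at most 13 counts in any library of 50 DPA or dry seed. The seed stages are separate samples, and the labels name no common plants or seed lot for them.

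At the centre of the set, ZS11C09G002630 and ZS11C03G003170 had the smallest changes between germinating seed and leaf. ZS11C09G002630 stood at 10.6 and 11.4 CPM in germinating seed and 10.7 and 11.1 in leaf, with 4 and 2 counts in 50 DPA seed and none in dry seed. ZS11C03G003170 stood at 34.2 and 28.2 CPM in germinating seed and at 31.0 and 30.8 in leaf. Their log2 changes were 0.01 each, with SEs of 0.19 and 0.21 (edgeR adjusted p = 0.997 and 0.978).

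Libraries of the same tissue agreed closely over the members. The median absolute log2 difference between the 2 libraries was 0.14 in germinating seed and 0.06 in leaf, against 0.11 and 0.06 for the other genes of at least that level in the same tissues. A single member differed by over 1.5-fold between the germinating libraries and a single member between the leaf libraries. Both were picked out after their values were seen. Each is 0.4% of the members, against 0.32% in germinating seed and 0.037% in leaf for the other genes of at least that level. ZS11C04G063180 had 29.8 and 17.3 CPM in germinating seed and 103.8 and 98.2 in leaf, and was called lower (log2 change -2.10, SE 0.23; edgeR adjusted p = 6.93e-06), though not by DESeq2 (adjusted p = 0.0764, the highest of its alternatives, whose lowest was 1.39e-07). ZS11C06G000800 had 11.8 and 14.4 CPM in germinating seed and 12.5 and 19.1 in leaf, and was not called. When 250 genes were chosen by the same rule on library 1 of each tissue alone, all 250 had at least 2 CPM in library 2 of leaf and germinating seed, and 220 were below 1 in library 2 of both seed stages. Chosen on library 2 and read in library 1, the numbers were 250 and 214. The lowest value of a chosen gene in leaf or germinating seed of the library not used was 4.40 and 8.75, so the limit of 2 was near fixed for the 250 highest genes and their passing it is a description. Of all 2149 genes that met the limits in library 1, 78.0% also met them in library 2, and of the 2195 that met them in library 2, 76.4% also met them in library 1.

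The gene IDs carry a chromosome prefix, which the rule did not use. Of the members, 135 (54.0%) had an A prefix and 114 (45.6%) a C prefix, and ZS11UN3950 had the prefix UN. An A prefix was found in 46.7% of all genes tested and in 48.7% of the other genes meeting the limits. Members made up 0.494% ± 0.177 of the tested genes per A prefix (SD, 10 prefixes) and 0.368% ± 0.123 per C prefix (SD, 9 prefixes). The ranges overlapped widely, from 0.188% for A01 to 0.860% for A02 and from 0.198% for C01 to 0.617% for C06. A02 and A03 held 23 members each, while A01 held 5 and C01 held 6. ZS11UN3950 stood at 43.9 and 33.9 CPM in germinating seed and at 50.3 and 51.3 in leaf. Its call as lower (edgeR adjusted p = 0.0378) was lost in 8 of 20 alternatives. Leaving aside the 2-fold minimum, adjusted p over the alternatives ran from 0.00471 to 0.311. The lost calls include total counts alone (adjusted p = 0.136) and the fits without the second germinating library (adjusted p = 0.311), the first leaf library (adjusted p = 0.153), the second leaf library (adjusted p = 0.183) or the first 50 DPA library (adjusted p = 0.0508).

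**Figure D5:**
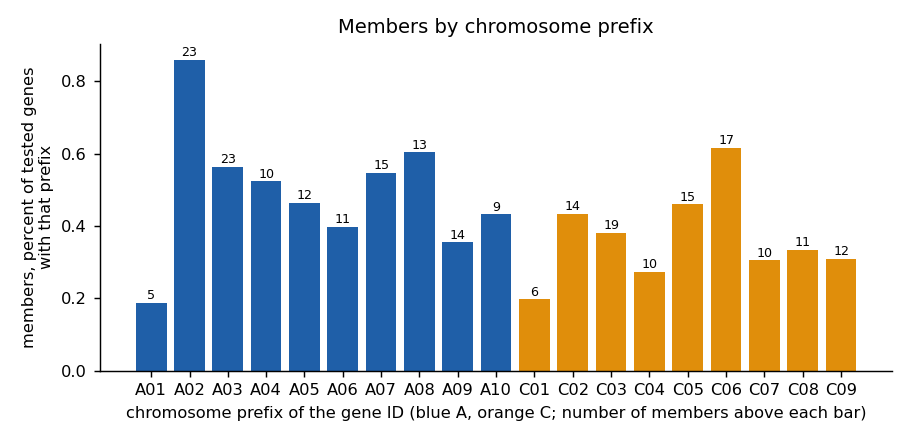
Members as a percent of the tested genes with the same chromosome prefix in their ID, with the number of members above each bar (blue, A prefixes; orange, C prefixes). A02 has the highest share at 0.860% and A01 the lowest at 0.188%.

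Neighbouring members were looked for in the order of the IDs. Of the 250, 4 (1.6%) had a member as the next ID, in 2 pairs, and 12 (4.8%) had a member within 5 IDs. Among the 1676 genes meeting the limits, 92 (5.49%) had another such gene as the next ID and 315 (18.8%) within 5 IDs. That set is larger, which by number alone gives more neighbours, and the shares were not tested. Near-identical copies are common in this genome, and how reads shared by copies were counted is not given in the sources used here, so the levels of neighbouring IDs are uncertain to that extent. In the first pair, ZS11C05G010380 and ZS11C05G010390 were both higher in germinating seed. ZS11C05G010380 had 6 and 2 counts in the 50 DPA libraries and none in dry seed. Its level was 273.7 and 307.8 CPM in the germinating seed libraries and 86.9 and 94.1 in leaf. Its log2 change was 1.68 (SE 0.11; edgeR adjusted p = 1.66e-07), against 4.97 for its neighbour, so the 2 had like levels in germinating seed and differed in leaf.

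The members of the other pair went in opposite directions. ZS11C06G044000, described above, was lower in germinating seed, and the next ID, ZS11C06G044010, stood at 49.6 and 61.3 CPM in germinating seed and 33.4 and 38.6 in leaf. Its log2 change was 0.62 (SE 0.18; edgeR adjusted p = 0.00982). That call was lost in 5 of 20 alternatives, and adjusted p over those other than the 2-fold minimum ran from 3.08e-05 to 0.478. It did not hold without the second germinating library (adjusted p = 0.147), without the first leaf library (adjusted p = 0.117) and by DESeq2 (adjusted p = 0.478). Among the 493 IDs that lie next to a member and are not members, 16 (3.25%) met the limits of the rule, against 1.35% of all IDs outside the set. No count in any of the 8 libraries was found for 23.3% of these adjacent IDs and for 29.7% of all IDs outside the set. At least 1 CPM in a seed library was found for 41.0% of the adjacent IDs and for 41.2% of all IDs outside the set. The limit of 2 was reached in both libraries of leaf and germinating seed by 31.2% of the adjacent IDs and 26.9% of all IDs outside the set. None of these differences was tested.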

How the data were processed

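The authors deposited whole-number counts per gene and a TMM-scaled signal for the same 8 libraries. The submitters' processing notes list edgeR, FastQC, HISAT2 and SAMtools without versions. The read counter, genome build and annotation are not stated there or in the file headers. Tested on the files, the deposited signal is each count scaled by a library constant, with deviations of at most 0.00326. One line of the count table that names alignment files was removed. A second count table of 3 tissues, without germinating seed, held the same values for them (0 differed).

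Members and lists were chosen with earlier results of these data known. Members were taken from the deposited signal. Germinating seed was compared with leaf on the counts of all 8 libraries with edgeR 4.0.16 (R 4.3.3): filterByExpr, TMM factors, 1 mean per tissue, a robust quasi-likelihood fit, 2-sided tests and Benjamini-Hochberg adjustment over 59062 genes. Standard errors are the log2 change over the square root of F. The test was checked on simulated counts. Apart from set changes, the simulation gave each gene the same level in all tissues, and it held no doubled counts. The check thus does not cover genes near 0 in seed, as the members are. Levels are deposited values, as mean ± SD of 2 libraries. Named members are the first 5 by rule, the 2 largest changes in each direction without overlap of libraries and the 2 smallest changes. The last member, the highest in seed and runs of neighbouring IDs were named too. ZS11UN3950 was added for its prefix, and ZS11C04G063180, ZS11C06G000800 and ZS11A04G014400 were added after their values were seen. Deviations from tissue means correlated at -0.0086 to 0.0064 between libraries of the same number, so the main fit did not pair libraries by number. Correlations over all genes tested cannot exclude a source shared by libraries of the same number. Alternatives were other scales, filters, tests (limma 3.58.1, DESeq2 1.42.0) and left-out libraries.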

Additional observations from a re-analysis of the deposited data

How the results depend on the processing

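The number of members called higher or lower stayed within 1.5 times 77 and 102 except with a 2-fold minimum (45 and 67), which only removes calls. Leaving out a library gave 60 to 93 higher and 87 to 109 lower, and the fit of germinating seed and leaf libraries alone gave 99 and 111. With the replicate block they were 75 and 98, and no count moved by over 1.5 times. The spread of the members' median log2 change was taken as 0.0085, the SD over every pairing of a germinating with a leaf library. Those pairings share libraries and are not independent. The median of -0.12 moved by more than that to -0.23 with DESeq2 size factors or its test and -0.13 with the 1 CPM filter. It also moved to -0.069 without the other tissues, 0.023 with total counts alone and 0.017 with upper-quartile factors. Leaving out libraries gave -0.128 to -0.067. The cause was not tested. Genes meeting the limits numbered 2656 with total counts alone, 1023 and 2955 with limits of 0.5 and 2 in seed, 2985 and 597 with limits of 1 and 5 in leaf and germinating seed, and 1728 to 1881 with a library left out. With the limit of 0.5 in seed, 157 members met the limits and stayed among the 250, and with 2, 156 stayed. At most 6 counts in place of 0 in all seed libraries raised 62 members to 120. Of 380 alternative values of the 19 named members, 344 kept direction and call and 18 lost the call. Another 18, of 5 members called in neither fit, changed sign. The 19 include the members added to the planned choice. Of the lost calls, 8 were of ZS11UN3950 and 1 of ZS11C04G063180, both added in this way. No called value changed sign. A tissue left with 1 library was taken to vary as the rest do. Depth limits seed levels below the floor of 6 counts.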

Other observations

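The members without a count in any library of 50 DPA and dry seed numbered 22 of the 77 called higher in germinating seed than in leaf (28.6%), 31 of the 102 called lower (30.4%) and 9 of the 71 not called (12.7%). Of the other 1426 genes that met the limits, 264 (18.5%) had no count in those libraries. By prefix, 43 of the 77 members called higher, 59 of the 102 called lower and 33 of the 71 not called had an A prefix. These are counts over a set chosen on the same libraries and were not tested. The calls came from a fit of all tissues together, so the seed counts entered the spread estimated for each gene. Being called and having no count in seed can therefore not be taken as independent. The fit of germinating seed and leaf libraries alone called 99 members higher and 111 lower. Whether the shares without a count differ between calls in that fit was not tested.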
